A study of Homo sapiens with 6 samples.

Results

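The developmental regulator genes GATA6, LBX2 and SERTAD4 were examined through 6 of the 59087 rows of a read count table. These are the rows of the 3 genes themselves and the rows AC091588.3, LBX2-AS1 and SERTAD4-AS1, each an antisense transcript whose exons lie over exons of one of these genes. The rows were chosen by name from earlier results on the same libraries, in which they had been read against wild type. Their values against wild type are therefore given as a description, without a test, and tests were made on the direct difference between the lines and on other rows. All 6 rows passed the filter on low counts, which kept 14184 rows. SERTAD4 and SERTAD4-AS1 passed through the knockout libraries and LBX2-AS1 through the wild-type libraries alone, so these 3 had to differ.

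The cells were HEK293T, a transformed line derived from human embryonic kidney. Each of 3 groups had 2 libraries of total RNA: unedited cells (WT), and the THUMPD2 KO#1 and THUMPD2 KO#2 lines, here KO1 and KO2. THUMPD2 encodes a methyltransferase that acts on the U6 RNA of the spliceosome. The study compared cells with and without it. All groups share the HEK293T background. With 1 WT line, what the knockout did and how a line differed from WT for any other reason cannot be told apart. The labels do not say whether a line was 1 clone or whether a pair of libraries had independent cultures. The p-values therefore reflect spread among these libraries alone, and that spread may be technical.

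Library totals lay between 7414339 and 8391143 counts. THUMPD2 had 0 to 3 reads in every library, too few to check the genotype labels. Of the 10 markers fixed for the HEK293 line, 7 had a row averaging at least 10 reads; the PAX2, EYA1 and LHX1 rows averaged 1.2, 0.8 and 0.0. AC015687.1, on the strand opposite EYA1, averaged 185.2 reads, and AC243773.1, opposite LHX1, averaged 6.3. The 4 fibroblast marker rows, COL1A1, COL1A2, DCN and LUM, summed to between 9 and 18 reads per library, the 4 endothelial rows to between 10 and 20. Blood marker rows summed to between 123 and 312. The 3 hepatocyte rows summed to between 215 and 355, although ALB among them was at 0 throughout. The blood sums were lowest in KO1 (140 and 123, against 243 and 312 in WT). Rows on the strand opposite the HEK293 markers summed to between 100408 and 104846 in KO2 against 49002 to 59729 in the other groups. Most of these reads were from AL133415.1 and VIM-AS1, both over VIM, with 89786 and 92177 in KO2 against 52132 and 54996 in WT. AC015687.1, AC022858.1 and AC243773.1 were instead lower in KO2 than in WT (171 against 249, 0 against 2, and 7 against 30). The part of these differences in the results below was not tested. In bulk RNA, fewer cells of a type and less RNA per cell cannot be told apart.

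GATA6 is a zinc finger transcription factor that binds GATA motifs and is needed for primitive and definitive endoderm and for the heart. LBX2 is a ladybird homeobox factor. Its relative LBX1 marks the muscle precursors that migrate into the limb and a set of dorsal spinal cord neurons. SERTAD4 belongs to the SERTA domain proteins, nuclear cofactors of which the best studied, SERTAD1, binds CDK4 and acts on E2F-driven transcription.

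Each of the 3 genes carries an antisense exon at or close to its start. On GRCh38 with GENCODE v29, GATA6 (ENSG00000141448.8) runs on the plus strand of chromosome 18 from 22169443 to 22202528. AC091588.3 (ENSG00000266283.1) lies on the minus strand at the far end of the gene, from 22200619 to 22205229, and shares 321 of its 770 exonic bases with the last exon of GATA6, from 22200656 to 22200976. A second antisense gene, GATA6-AS1, shares 240 of 3173 exonic bases with the first exon of GATA6. LBX2 (ENSG00000179528.15) lies on the minus strand of chromosome 2 from 74497517 to 74503316. LBX2-AS1 (ENSG00000257702.3, plus strand, 74502595 to 74504678) shares 650 of 2084 exonic bases with LBX2, which are the whole first exon of LBX2 from 74502667 to 74503316. SERTAD4 (ENSG00000082497.11) lies on the plus strand of chromosome 1 from 210232799 to 210246631. SERTAD4-AS1 (ENSG00000203706.8, minus strand, 210231456 to 210234047) shares 174 of 1004 exonic bases with the first exon of SERTAD4. In this annotation most exonic bases of each antisense row thus lie outside the exons of the gene. The authors' comparison gives smaller gene sizes, 358 bases for AC091588.3, 591 for SERTAD4-AS1 and 2083 for LBX2-AS1. It gives 291 for GATA6, 1626 for LBX2 and 216 for SERTAD4. How those sizes were set is not given in the sources used here, so the share outside may differ. The count table does not say where in a row its reads fell.

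**Figure D1:**
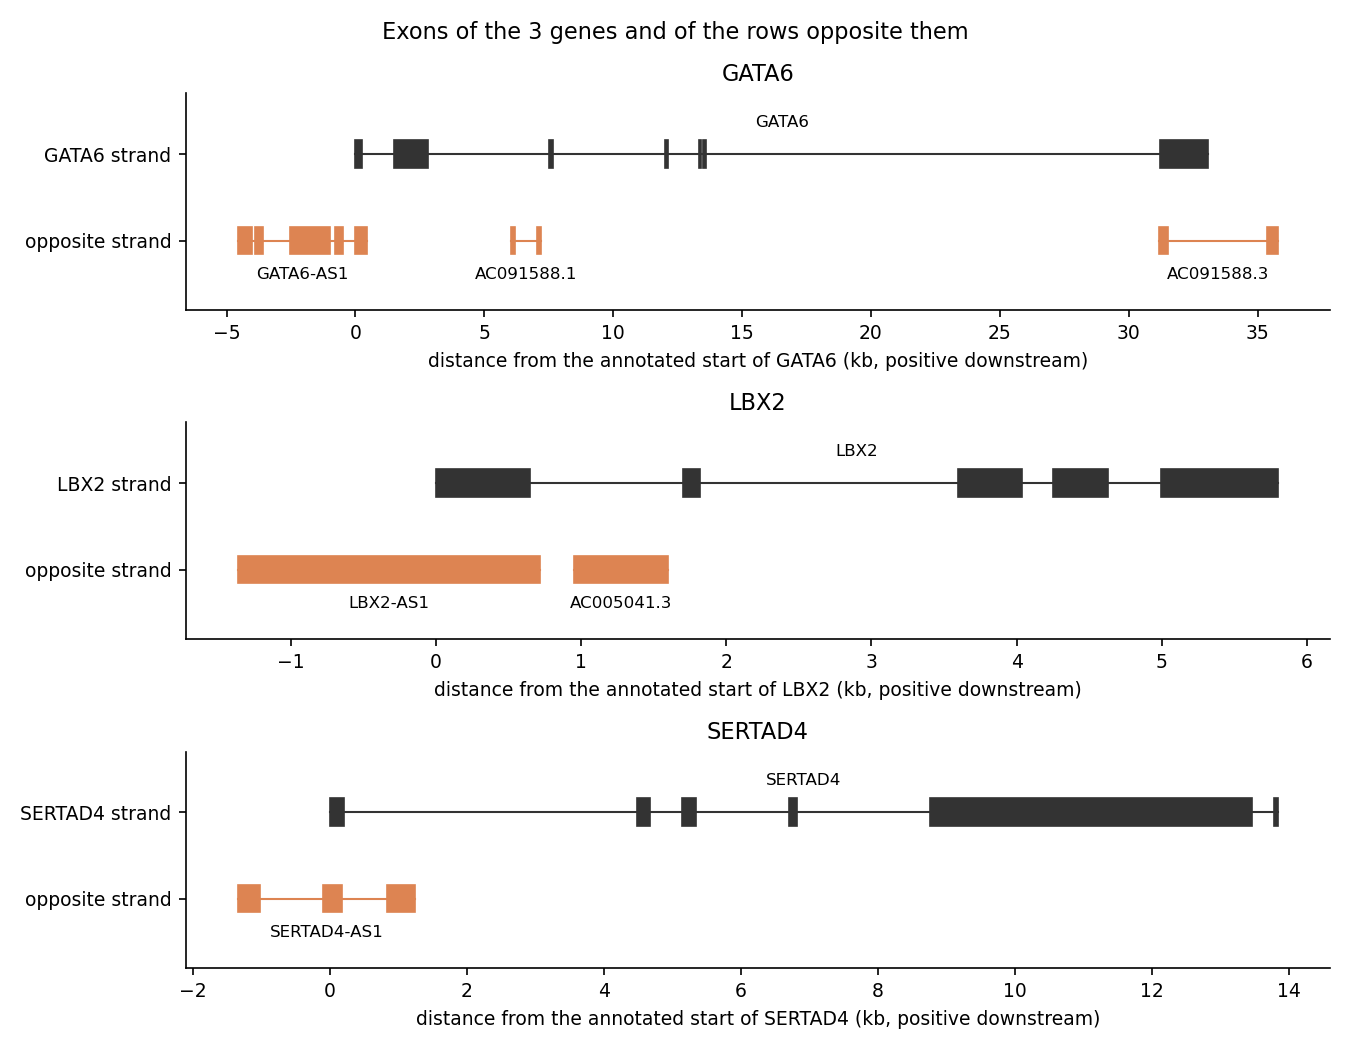
Annotated exons (boxes, merged over transcripts) of GATA6, LBX2 and SERTAD4 in black and of the rows on the opposite strand in orange, against the distance from the annotated start of each gene in kb. GATA6-AS1, LBX2-AS1 and SERTAD4-AS1 cover the start of their gene, and AC091588.3 covers part of the last exon of GATA6.

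The start-site windows are printed because they show which start of each gene an antisense row reaches. They run from 250 bases before to 50 bases after a RefSeq start (GRCh38.p14), 5′ to 3′ on the strand of the gene. All 3 genes were matched by symbol, with 1 start for GATA6 and 2 each for LBX2 and SERTAD4. Capitals mark bases that lie over exons of the antisense row, 230 bases for GATA6 (GATA6-AS1), 300 for the upstream start of LBX2 (LBX2-AS1), 0 for its downstream start, and 148 for the upstream start of SERTAD4 (SERTAD4-AS1).
GATA6, chr18:22169339-22169638, plus strand: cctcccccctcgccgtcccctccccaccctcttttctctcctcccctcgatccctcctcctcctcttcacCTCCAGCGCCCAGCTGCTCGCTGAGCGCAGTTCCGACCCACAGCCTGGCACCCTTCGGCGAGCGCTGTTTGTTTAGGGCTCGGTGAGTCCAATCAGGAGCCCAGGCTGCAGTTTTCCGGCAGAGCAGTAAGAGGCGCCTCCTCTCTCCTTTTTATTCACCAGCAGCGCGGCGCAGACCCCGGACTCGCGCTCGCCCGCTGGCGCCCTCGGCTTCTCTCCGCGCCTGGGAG
LBX2 upstream start, chr2:74503267-74503566, minus strand: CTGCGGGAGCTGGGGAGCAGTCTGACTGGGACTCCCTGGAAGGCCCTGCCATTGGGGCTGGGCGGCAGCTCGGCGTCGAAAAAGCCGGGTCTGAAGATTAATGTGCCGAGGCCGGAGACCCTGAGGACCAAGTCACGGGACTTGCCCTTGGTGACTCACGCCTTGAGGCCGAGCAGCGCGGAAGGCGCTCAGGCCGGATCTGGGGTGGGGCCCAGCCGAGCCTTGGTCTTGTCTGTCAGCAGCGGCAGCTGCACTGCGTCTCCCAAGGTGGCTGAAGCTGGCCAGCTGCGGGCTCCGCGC
LBX2 downstream start, chr2:74499554-74499853, minus strand: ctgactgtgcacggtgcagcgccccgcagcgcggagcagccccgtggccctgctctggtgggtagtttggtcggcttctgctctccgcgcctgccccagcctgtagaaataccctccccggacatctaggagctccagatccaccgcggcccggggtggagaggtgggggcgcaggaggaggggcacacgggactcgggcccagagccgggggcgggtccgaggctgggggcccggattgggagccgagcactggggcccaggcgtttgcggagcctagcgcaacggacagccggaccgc
SERTAD4 upstream start, chr1:210232546-210232845, plus strand: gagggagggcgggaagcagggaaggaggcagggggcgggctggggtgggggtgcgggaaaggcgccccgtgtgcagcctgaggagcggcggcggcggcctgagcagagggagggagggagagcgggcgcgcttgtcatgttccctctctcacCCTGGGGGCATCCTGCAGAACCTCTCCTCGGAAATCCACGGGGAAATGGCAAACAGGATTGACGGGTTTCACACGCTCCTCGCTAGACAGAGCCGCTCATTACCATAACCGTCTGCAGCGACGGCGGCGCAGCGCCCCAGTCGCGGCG

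These 4 windows were rich in G and C, with 66.7% for GATA6, 67.3% and 72.3% for the upstream and downstream starts of LBX2, and 68.3% for SERTAD4. The median over all 35116 windows of this length was 58.7%. They held 25, 21, 27 and 27 CG dinucleotides, against a median of 14. The downstream start of SERTAD4, not printed, differed from these, with 52.7% G and C, 5 CG dinucleotides and 0 bases over SERTAD4-AS1. An exon on the opposite strand lay over 18.1% of the 21021 windows of protein-coding genes, so this arrangement is not rare. A GATA core, AGATAA, was searched on both strands and was in none of the 5 windows of the 3 genes, against 10.3% of all windows. The homeodomain core TAATTA was also in none of them, against 4.84%. The same held for the TATA box letters, TATAAA, which 11.5% of all windows hold.

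The library kit keeps the strand of each transcript, but the strand setting of the counting is not given in the sources used here. The row GAPDH held 939 times fewer reads in WT than AC006064.4, a row on the strand opposite to it. Whether the reads of a row came from its own strand or from the gene opposite was not tested for the loci below. Each row is therefore named together with the gene it lies over, where there is one. A gene name below stands for the row of that name, whose reads need not be the mRNA of that gene.

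At the GATA6 locus the 4 tested rows, on both strands, stood higher in the knockout lines. AC091588.3 and GATA6 were chosen on this contrast, and AC091588.1 could only come out higher (below), so nothing is read from this count. Over all tested rows, 17.4% had all 4 knockout libraries above both WT libraries in reads scaled to library size. AC091588.3, over the end of GATA6, had WT counts of 650 and 697, KO1 counts of 2140 and 2104, and KO2 counts of 1696 and 1871. The counts did not overlap between any of the groups, and the order was WT, then KO2, then KO1. It was 3.33-fold higher in KO1 and 2.41-fold in KO2, at log2 fold changes of 1.74 ± 0.07 and 1.27 ± 0.07 (± SE, n = 2 against 2). The row GATA6 itself held far fewer reads, with WT counts of 12 and 16, KO1 counts of 36 and 45, and KO2 counts of 43 and 48. Both lines stood above WT, by 1.61 ± 0.38 and 1.56 ± 0.37, and their counts overlapped.

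GATA6-AS1, over the start of GATA6 and not among the 6 rows, had WT counts of 140 and 113, KO1 counts of 409 and 358, and KO2 counts of 281 and 319. Its log2 fold changes were 1.68 ± 0.14 and 1.11 ± 0.14, in the same group order as AC091588.3 at the other end of the gene. AC091588.1, an antisense row inside an intron of GATA6 (22175465 to 22176662), had WT counts of 0 and 2, KO1 counts of 25 and 20, and KO2 counts of 19 and 12. With 2 WT reads in all, its ratio to WT was 23.8 in KO1 (95% counting interval 6.21 to 202.0, exact) and 14.1 in KO2 (3.59 to 122.0). AC091588.1 passed the low-count filter through the knockout libraries alone, so it could only come out higher. The antisense rows at the start and at the end of GATA6 gave the same direction. The number of AC091588.3 reads per GATA6 read was 48.1 in WT, 52.4 in KO1 and 39.2 in KO2.

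At the LBX2 locus the pair of rows moved apart. LBX2-AS1, over the first exon of LBX2, had WT counts of 134 and 176, KO1 counts of 1 and 4, and KO2 counts of 4 and 4. Every knockout library was far below both WT libraries, and the lines overlapped each other. The fitted decrease was 55.9-fold in KO1 and 41.1-fold in KO2, at −5.80 ± 0.66 and −5.36 ± 0.54. So few reads remained in KO1 that the value depended on the library, with −7.08 without KO1 replicate 2 and −5.11 without KO1 replicate 1.

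The row LBX2 showed another pattern, with WT counts of 286 and 296, KO1 counts of 251 and 202, and KO2 counts of 501 and 629. KO2 lay above both other groups, and KO1 lay below WT. The log2 fold changes were −0.28 ± 0.12 in KO1 and 0.82 ± 0.11 in KO2. Reads of LBX2-AS1 per read of LBX2 went from 0.533 in WT to 0.011 in KO1 and 0.00708 in KO2. The KO1 libraries gave 0.00398 and 0.0198, on either side of the KO2 libraries at 0.00798 and 0.00636. Of the exonic bases of LBX2, 1739 lie outside LBX2-AS1.

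At the SERTAD4 locus both rows were near the detection limit in WT and well above it in both lines. SERTAD4-AS1 had WT counts of 6 and 11, KO1 counts of 255 and 242, and KO2 counts of 181 and 146. No group overlapped another, and KO1 was highest. It was 30.5-fold higher in KO1 and 17.3-fold in KO2, at 4.93 ± 0.37 and 4.12 ± 0.37. The row SERTAD4 had WT counts of 3 and 2, KO1 counts of 62 and 86, and KO2 counts of 49 and 50. Its group order was the same, at 4.90 ± 0.67 and 4.11 ± 0.67. The ratio of SERTAD4-AS1 to SERTAD4 reads was 3.40 in WT, 3.36 in KO1 and 3.30 in KO2. The WT ratio rests on few reads, at 2.0 in one library and 5.5 in the other, and the KO1 libraries gave 4.11 and 2.81.

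**Figure D2:**
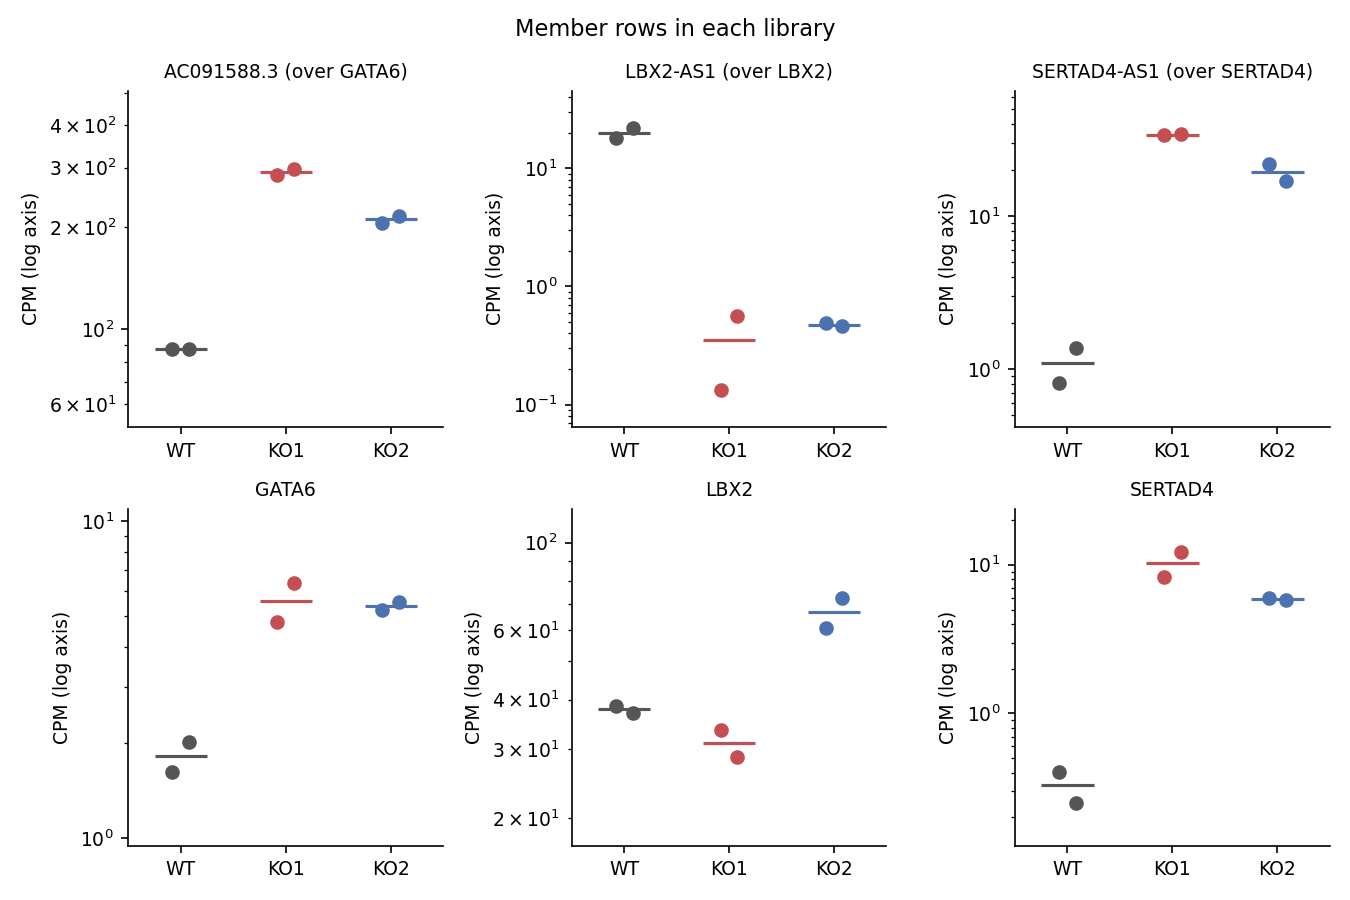
Reads scaled to library size (CPM, with TMM factors, log axis) of the 6 rows in each library, with points for libraries and bars for group means of n = 2. The GATA6 and SERTAD4 pairs are higher in all 4 knockout libraries, LBX2-AS1 is lower in all 4, and LBX2 is highest in KO2.

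In all, 4 of the 6 rows had all 4 knockout libraries above both WT libraries in reads scaled to library size (CPM), and LBX2-AS1 had all 4 below. Over all tested rows 17.4% were above in this way and 18.6% below. Since the rows were chosen on this contrast, nothing is read from their count. Per kilobase of annotated exon, WT levels in CPM were 114 for AC091588.3, 15.8 for LBX2, 9.63 for LBX2-AS1, 1.09 for SERTAD4-AS1, 0.459 for GATA6 and 0.0599 for SERTAD4. In KO1 the level of SERTAD4-AS1 stood second at 34.0, behind AC091588.3 at 379, while LBX2-AS1 was last at 0.168. These levels use GENCODE v29 lengths, and their order depends on the lengths used. The authors' gene sizes are far smaller for GATA6 (291 against 3945 bases) and SERTAD4 (216 against 5467).

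The direct comparison of KO1 and KO2 was tested. The rows were chosen with earlier results of these libraries known, so these p-values are not free of that choice. Nothing is read from the count of rows that differed. By the edgeR quasi-likelihood test with Benjamini-Hochberg adjustment over all tested rows, 4 of the 6 rows differed between the lines, where 20.4% of all rows did. KO1 was the higher line for 3 of them and the lower for 1. AC091588.3 was 1.38-fold higher in KO1, at 0.47 ± 0.07 (adjusted p = 1.32e-06). SERTAD4-AS1 was 1.76-fold higher in KO1, at 0.81 ± 0.17 (adjusted p = 0.000293). LBX2 was 2.15-fold lower in KO1, at −1.10 ± 0.12 (adjusted p = 1.71e-09). These 3 calls held in every alternative fit listed in the closing section.

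SERTAD4 was 1.74-fold higher in KO1, at 0.80 ± 0.27 (adjusted p = 0.0314). That call ended without KO1 replicate 2 (0.49), without KO2 replicate 1 (0.81), without KO2 replicate 2 (0.77) and by DESeq2 (0.82, adjusted p = 0.154). The row GATA6 was at 0.05 ± 0.31 between the lines (adjusted p = 0.944), with an approximate 95% interval of −0.55 to 0.65. The interval of GATA6 includes the difference found for AC091588.3. LBX2-AS1 was at −0.44 ± 0.82 (adjusted p = 0.764), with an interval of −2.06 to 1.17, so a difference of several fold was not detectable at this depth.

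**Figure D3:**
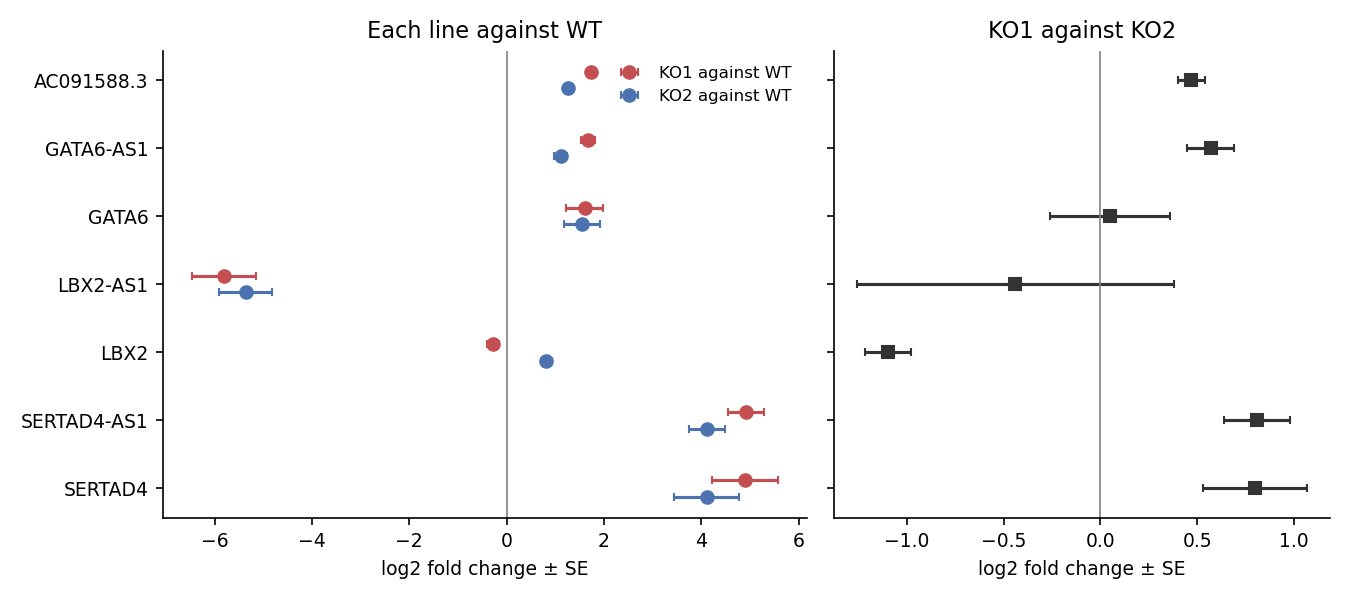
Log2 fold changes with SE (n = 2 against 2) of the 6 rows and of GATA6-AS1, for each line against WT on the left and for KO1 against KO2 on the right. The row LBX2 lies on opposite sides of 0 in the lines, and AC091588.3, GATA6-AS1, SERTAD4-AS1 and SERTAD4 lie right of 0 in the direct comparison.

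Rows next to each pair were examined for change of the wider region. Around LBX2, 6 of 25 tested rows within 500 kb were lower in both lines and 0 higher, where 7.72% of all tested rows were lower in both and 5.79% higher. At an unadjusted p under 0.05, 1 was higher, and by DESeq2 0 were. The 3 rows closest to LBX2 were all among the lower ones. The nearest, AC005041.3, passed the low-count filter through the WT libraries alone, so it could only come out lower. AC005041.3, an antisense row inside an intron of LBX2 (chromosome 2, 74501717 to 74502365), had WT counts of 45 and 37 and was at 0 in all 4 knockout libraries. Against a floor of 3 reads per group it was at least 25.9-fold lower in KO1 and at least 30.0-fold lower in KO2.

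TTC31, a tetratricopeptide repeat gene over CCDC142 that ends 2631 bases from LBX2, fell from WT counts of 99 and 133 to KO1 counts of 14 and 14 and KO2 counts of 15 and 10. These are log2 fold changes of −2.96 ± 0.34 and −3.33 ± 0.35. PCGF1, a Polycomb group RING finger gene 365 bases beyond LBX2-AS1, fell from WT counts of 60 and 55 to KO1 counts of 18 and 18 and KO2 counts of 29 and 18, at −1.59 ± 0.35 and −1.42 ± 0.33 on the log2 scale. LOXL3, over the mitochondrial protease gene HTRA2, was lower, at −0.36 and −0.18, and its KO2 call ended when any WT or KO2 library was left out (−0.16 to −0.19) and with upper-quartile factors. TLX2, the nearest other homeobox gene, had 12 and 26 reads in WT and 11 to 23 in the knockout libraries, and HTRA2 was at 0.07 and −0.16, neither called in both lines. The remaining 2 lower rows, named after their values were seen, were DOK1 (−1.11 and −0.89) and WDR54 (−0.68 and −1.93). The median of the 25 rows was −0.09 in KO1 and −0.22 in KO2, against 0.01 and 0.02 for all tested rows.

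Around GATA6, 2 of 5 tested rows were higher in both lines, AC091588.1 and GATA6-AS1, and 0 lower (0 also at an unadjusted p under 0.05 and by DESeq2). Of these, AC091588.1 could only come out higher, since it passed the low-count filter through the knockout libraries alone. The other 3, of which the nearest is 298486 bases away, lay between −0.54 and 0.68. Around SERTAD4 there were 3 tested rows, none closer than 373891 bases. TRAF3IP3, over C1orf74, rose from WT counts of 143 and 138 to KO1 counts of 446 and 429 and KO2 counts of 462 and 484, by 1.72 ± 0.12 and 1.61 ± 0.12. The low-count rows UTP25 (WT counts of 6 and 2) and KCNH1 (4 and 7) were at 1.45 and 0.85 in KO1. They were at 1.23 and 1.38 in KO2, not called in both lines. Both passed the low-count filter through the knockout libraries alone, which favoured values above 0. None of the 3 was lower in both lines (0 also at an unadjusted p under 0.05 and by DESeq2).

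In a wider window of 5 Mb, chosen after seeing the data, the median of 44 rows around SERTAD4 was 0.48 in KO1 and 0.64 in KO2. It was 0.26 and −0.40 for 27 rows around GATA6, and 0.02 and −0.01 for 64 rows around LBX2. Rows around SERTAD4 thus stood above the median of all rows in both lines, by far less than the SERTAD4 rows themselves. The part of such a regional shift in the values of the SERTAD4 rows was not tested.

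**Figure D4:**
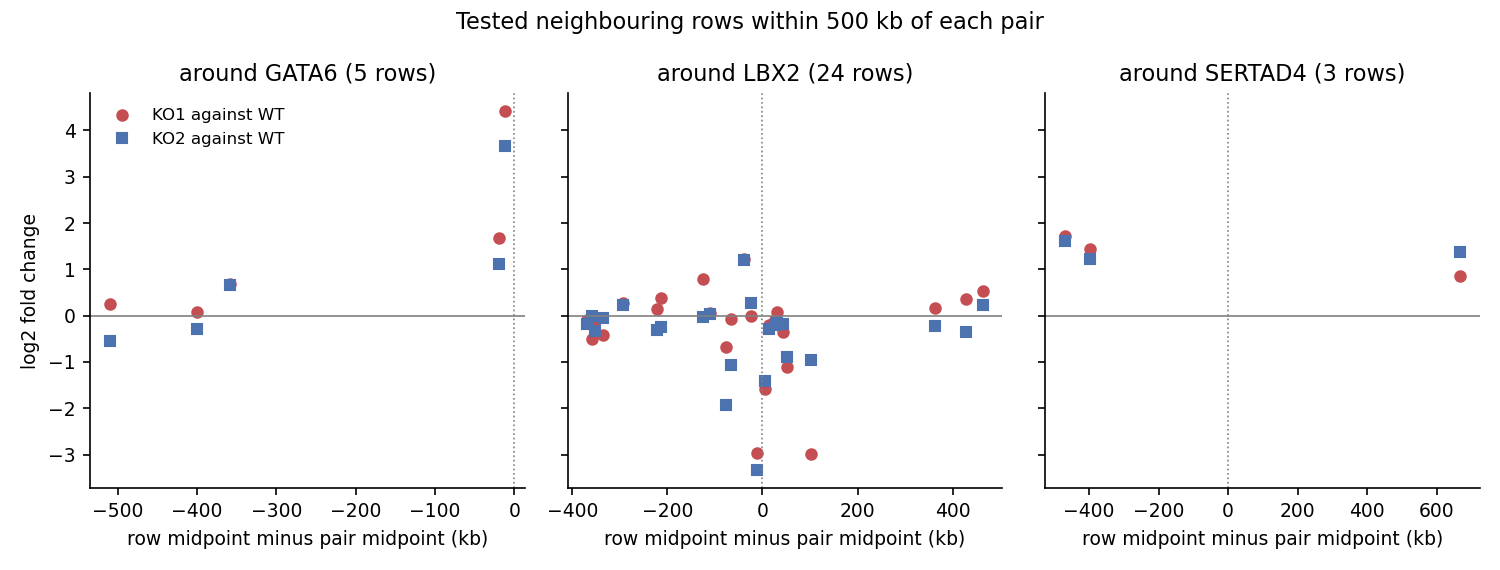
Log2 fold changes of tested rows within 500 kb of each pair in KO1 (circles) and KO2 (squares), against the distance between the midpoints of row and pair in kb. TTC31 and PCGF1, next to LBX2, lie below 0 in both lines, and AC091588.1, inside GATA6, has the highest values. The 3 rows around SERTAD4 are all above 0. UTP25 and KCNH1 among them, and AC091588.1, passed the low-count filter through the knockout libraries alone. AC005041.3, without knockout reads, is left out.

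Other genes of the same developmental programs were read by their own row and by the row on the opposite strand. Over 7 lists with 171 genes, 77 own rows were tested, of which 6 were higher and 7 lower in both lines, shares near the background of 5.79% and 7.72%. Of 32 tested opposite-strand rows, 1 was higher and 8 lower. The medians over the opposite-strand rows were −0.30 in KO1 and −0.34 in KO2. By DESeq2 the own rows gave 3 higher and 3 lower.

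Among the GATA factors and their partners, 5 of 11 own rows were tested and 0 were called in both lines by edgeR (0 also at an unadjusted p under 0.05 and by DESeq2). GATA2, a factor of blood progenitors, fell in KO1, from 290 and 312 reads to 163 and 172, by 0.76 ± 0.13 on the log2 scale (adjusted p = 1.31e-05). In KO2 it had 341 and 372 reads and was at 0.11 ± 0.12. The lines differed for GATA2 by −0.87 (adjusted p = 1.19e-06).

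Of the endoderm list, 2 of 8 own rows were higher in both lines and 3 of 6 opposite-strand rows lower, where DESeq2 called 1 higher and 1 lower. LAMC1, a laminin subunit gene, rose from WT counts of 26 and 15 to KO1 counts of 68 and 84 and KO2 counts of 56 and 48, and its KO2 call ended without WT replicate 2 (0.81). AC005046.1, over the laminin gene LAMB1, was lower, at −0.97 ± 0.23 and −1.92 ± 0.25. AP002409.1, over LAMA1, was lower, at −0.39 and −0.85, and its KO1 call ended whichever WT or KO1 library was left out (−0.37 to −0.43), with upper-quartile factors, by DESeq2 and without a filter. AC243773.1, over LHX1, had 17 and 13 reads in WT and 0 to 7 in the knockout libraries. It passed the low-count filter through WT alone, so it could only come out lower. Its KO2 call ended without WT replicate 1 (−1.95), WT replicate 2 (−2.43) or KO2 replicate 1 (−1.25), and by DESeq2, and its value was −6.91 without KO2 replicate 2, which leaves no KO2 reads. Its KO1 value of −4.54 was −6.96 without KO1 replicate 1.

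Of the cardiac mesoderm list, 1 of 8 own rows and 1 of 5 opposite-strand rows were lower in both lines. HAND2-AS1, over the heart and limb factor HAND2, fell from WT counts of 140 and 177 to KO1 counts of 80 and 92 and KO2 counts of 78 and 54, at −0.80 ± 0.20 and −1.39 ± 0.21. WNT11, a signal of heart development whose row lies over AP000785.1, fell from WT counts of 92 and 57 to KO1 counts of 0 and 4 and KO2 counts of 48 and 44. In KO2 the WNT11 call ended without WT replicate 1 (−0.39) or KO2 replicate 2 (−0.73), and by DESeq2, which called 0 own rows of this list lower in both lines. In KO1 its value ranged from −4.07 without KO1 replicate 1 to −9.28 without KO1 replicate 2, which leaves no KO1 reads.

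Of the BMP and nodal signalling list, 1 of 19 own rows was higher and 1 of 4 opposite-strand rows lower. THPO, over the BMP antagonist gene CHRD, fell from WT counts of 100 and 70 to KO1 counts of 28 and 22 and KO2 counts of 19 and 40, at −1.69 ± 0.32 and −1.67 ± 0.31. Without KO2 replicate 2 the KO2 value was −2.25 and without KO2 replicate 1 it was −1.25. ID4, an inhibitor of basic helix-loop-helix factors, rose by 1.02 and 1.11. Both ID4 calls ended without WT replicate 1 (0.62 and 0.70), and each ended without replicate 2 of its own line (0.88 and 0.99). Both also ended by DESeq2, which called 0 own rows of this list higher, and the KO1 call ended without a filter on low counts.

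The NKL homeobox class, to which LBX2 belongs, had 2 own rows higher and 5 lower of 19 tested, and 3 of 8 opposite-strand rows lower. By DESeq2 the own rows gave 1 higher and 3 lower, and the opposite-strand rows 3 lower. LBX1, the closest relative of LBX2, had a row over LBX1-AS1 that fell from WT counts of 223 and 250 to KO1 counts of 41 and 39 and KO2 counts of 75 and 107. These are −2.48 ± 0.21 and −1.51 ± 0.18, and every knockout library was below both WT libraries. AC091980.2, over TLX3, a factor of spinal cord neurons, fell from WT counts of 197 and 192 to KO1 counts of 2 and 9 and KO2 counts of 22 and 23. Its KO1 value of −5.03 was −4.30 without KO1 replicate 1 and −6.49 without KO1 replicate 2. AC012366.1, over the cortical factor EMX1, was lower, at −1.78 ± 0.17 and −0.69 ± 0.15. AL445237.1, over NKX1-2, was lower, at −1.82 ± 0.12 and −0.39 ± 0.10, and its KO2 call ended without WT replicate 2 (−0.34) or KO2 replicate 1 (−0.33). Named after their values were seen, HLX (1.82 and 2.27) and NKX2-4 (0.80 and 1.21) were the 2 higher rows. EN1, VAX1, BARX1 and NKX6-2 were the other 4 lower ones. BARX1 passed the low-count filter through WT alone and HLX through the knockout lines alone, so each could only come out as it did.

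Of the SERTA and E2F list, 1 of 13 own rows and 1 of 8 opposite-strand rows were higher in both lines. E2F3, which drives genes of S phase, rose from WT counts of 24 and 47 to KO1 counts of 101 and 82 and KO2 counts of 127 and 113, by 1.45 ± 0.26 and 1.63 ± 0.26. LTO1, over the cyclin D1 gene CCND1, rose by 0.62 ± 0.07 and 0.21 ± 0.07, and its KO2 call ended whichever WT or KO2 library was left out (0.19 to 0.23), by DESeq2, which called 0 of these opposite-strand rows higher in both lines, and without a filter.

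The 3 rows most like each antisense row were taken by the smallest Euclidean distance between centred log2 CPM profiles over the 6 libraries. For AC091588.3 these were RANGAP1 (distance 0.206), STARD4-AS1 over NREP (0.238) and BDNF over BDNF-AS (0.268). STARD4-AS1 had WT counts of 878 and 930, KO1 counts of 2798 and 2732, and KO2 counts of 2662 and 2710. For LBX2-AS1 they were KRT32 (0.890), PARP9 over DTX3L (1.06) and the pseudogene KRT43P (1.18). KRT32 and KRT43P had no reads in the knockout libraries and PARP9 had 2 in all. These rows passed the low-count filter through WT alone, so each could only come out lower. For SERTAD4-AS1 they were SPINK5 (0.956), NCAM1-AS1 over NCAM1 (1.06) and NCAM1 (1.31). NCAM1-AS1, over the neural adhesion gene, had WT counts of 29 and 23, KO1 counts of 563 and 457, and KO2 counts of 608 and 522. BDNF, SPINK5 and NCAM1 passed the low-count filter through the knockout libraries alone, which favoured higher values there. These likenesses rest on 3 groups of 2 libraries and describe profiles only.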

How the data were processed

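Per the file headers, the deposited values used here were whole-number read counts for each gene symbol, with no normalization, in 59087 rows and 6 libraries. The authors' comparison table holds, per the file headers, FPKM, log2 fold changes, p-values, q-values, score columns and a gene size. Its gene sizes are quoted above, and it entered no other result. The submitters' processing notes name limma, HTSeq 0.6.1p1, STAR 2.7.1a and Trim Galore, with GRCh38.p6 and hg38. Which annotation was counted, and with what strand setting, is not given in the sources used here. Groups came from the sample labels. Members and lists were chosen with earlier results of these data known.

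Counts were fitted by the edgeR 4.0.16 quasi-likelihood test (R 4.3.3) with TMM factors and filterByExpr, in 1 fit of 3 groups without covariates. Calls needed a p under 0.05 after Benjamini-Hochberg adjustment, and a call in both lines needed the same sign in each. SEs are Wald errors of the fit. In all, 56195 rows were placed on GENCODE v29 by unique symbol. An opposite-strand row shared at least 100 exonic bases with a gene, and at least 80% of its opposite-strand overlap. Named rows were the 6 members, up to 4 rows per list by the smallest p among those called in both lines (or the 1 of smallest p), up to 4 called neighbours per locus within 500 kb by distance, and for each antisense member the 3 nearest profiles (mean CPM 1 or more, leaving out LINC, LOC, microRNA and clone-named rows). As alternatives, scaling (RLE, upper quartile), tool (DESeq2 1.42.0), filter, replicate block and the libraries in the fit were each changed, 1 at a time. A few rows of the marker and gene lists are counted in the totals but not reported here by name, and the limb muscle precursor list is not reported on its own. The fit was tested on simulated data. Intervals and floors cover only counting error: without molecular identifiers, reads need not be separate molecules.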

Additional observations from a re-analysis of the deposited data

Results flagged for a closer look

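The effect against WT differed between the knockout lines, by the edgeR test of KO1 against KO2 itself, for 5 rows at these loci. On the log2 scale KO1 stood above KO2 by 0.47 for AC091588.3 and 0.57 for GATA6-AS1, at the end and the start of GATA6. It stood above KO2 by 0.81 for SERTAD4-AS1 and 0.80 for SERTAD4. For the row LBX2 the difference was −1.10, KO1 lying below WT and KO2 above. All these differences had the same direction in both libraries of each line, and the call for SERTAD4 was lost without KO1 replicate 2 or either KO2 library.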

How the results depend on the processing

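Each of the 6 rows against WT kept its direction in all 13 alternatives that gave a value. With upper-quartile factors AC091588.3 was at 1.81 in KO1. Leaving out 1 library gave 1.24 to 1.31 for AC091588.3 in KO2, 1.39 to 1.80 for GATA6 in KO1, and −7.08 to −5.11 for LBX2-AS1 in KO1. It gave 4.61 to 5.37 (KO1) and 3.79 to 4.56 (KO2) for SERTAD4-AS1, and 4.60 to 5.26 and 3.81 to 4.46 for SERTAD4. Between the lines, SERTAD4 ranged from 0.49 to 1.05 and was at 0.82 by DESeq2. GATA6 ranged from −0.17 to 0.24 and LBX2-AS1 from −1.72 to 0.25, both uncalled and reversed without KO1 replicate 2 (GATA6, −0.17) and KO1 replicate 1 (LBX2-AS1, 0.25). The cause was not tested. Own list rows higher in both lines numbered 3 by DESeq2 and 3 to 6 without 1 library, and lower ones 3 by DESeq2 and 5 to 7 without 1 library. Opposite-strand list rows higher in both lines numbered 2 with upper-quartile factors, 0 by DESeq2, 0 without a filter and 0 to 2 without 1 library; lower ones 5 to 8. Around LBX2 1 row was higher in both lines with RLE factors and with upper-quartile factors, and 0 to 1 without 1 library. Same-numbered libraries did not deviate together (correlations of −0.029 to −0.021 across rows), so the numbers pair nothing; with the replicate number as a block, 1 row around LBX2 was higher in both lines, and of the named rows AC243773.1 lost its KO2 call (−2.27). Depth limits LBX2-AS1 in the knockout lines and SERTAD4 in WT, each with at most 4 reads per library.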
